A study of Homo sapiens with 6 samples.

Results

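Interferon-stimulated genes and genes of antigen presentation were followed in U87MG cells, an established human glioblastoma line, with and without RSL3, a covalent inhibitor of the lipid peroxidase GPX4 that triggers ferroptosis. The 34 genes were taken by symbol from a list, without a cutoff on their measured values. The list was chosen with earlier results of these data known. Each gene matched 1 of the 65988 Ensembl gene identifiers in the count files. They comprise 24 targets of type I interferon, 4 interferon transcription factors and 6 genes of antigen presentation by major histocompatibility complex (MHC) class I. The control group was 3 libraries of vehicle-treated cells, and the RSL3 group was 3 libraries of cells given 2 µM RSL3. All 6 libraries came from the same line, labelled WT in genotype, and no interferon is named among the treatments. The treatment lasted 24 h, a time taken from a figure legend because the sample labels give none.

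Type I interferons are secreted proteins that bind the receptor formed by IFNAR1 and IFNAR2 and activate the kinases JAK1 and TYK2. STAT2 is then phosphorylated and joins IRF9 in a complex that binds the interferon-stimulated response element (ISRE) in the promoters of antiviral genes. MHC class I molecules consist of an HLA heavy chain and B2M, and they present peptides that the TAP1 and TAP2 transporter carries into the endoplasmic reticulum and that TAPBP (tapasin) helps to load.

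The core of the ISRE, the element bound by the complex of STAT2 and IRF9 in antiviral genes, was searched in the promoters. The letters GAAANNGAAA, or TTTCNNTTTC on the other strand, were looked for from 250 bases before to 50 bases after each RefSeq start site (GRCh38.p14), and overlapping matches were allowed. Of the 34 genes, 27 had a promoter entry, and 19 of these 27 (70.4%) held the core, against 4.38% of 27305 genes with an entry. The core was present in 15 of 18 type I targets, in 4 of 6 antigen presentation genes and in 0 of 3 transcription factors. With the longer core GAAANNGAAAC, or GTTTCNNTTTC, the share was 55.6% of the 27 against 0.952% of all genes, and it was present in 14 of 18 type I targets but in 1 of 6 antigen presentation genes. Sites are given here for genes that were lower after RSL3 (IFIT1, IFIT3, ISG15, IFIH1, IFITM3 and B2M) and for genes that did not pass the test (IFI44, IFI44L and ISG20), with the matched letters in capitals, 5′ to 3′ on the strand of the gene.
IFIT1, chr10:89392497-89392526, plus strand: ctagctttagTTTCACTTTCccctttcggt
IFIT3, chr10:89332425-89332454, plus strand: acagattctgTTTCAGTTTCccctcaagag
ISG15, chr1:1013380-1013409, plus strand: tcgggaaaggGAAACCGAAActgaagccaa
IFIH1, chr2:162318686-162318715, minus strand: gaagagaatcGAAACAGAAAccaaagtcag
IFITM3, chr11:320876-320905, minus strand: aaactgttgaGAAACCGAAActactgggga
B2M, chr15:44711369-44711398, plus strand: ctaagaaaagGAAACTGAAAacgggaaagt
IFI44, chr1:78649761-78649790, plus strand: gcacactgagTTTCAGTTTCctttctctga
IFI44L, chr1:78620365-78620394, plus strand: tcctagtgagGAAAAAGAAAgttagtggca
ISG20, chr15:88638937-88638966, plus strand: taacaaactaGAAACTGAAAcagggtcggg

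These sites were picked from promoters that held the core. They show it in genes called lower and in genes that did not pass the test. Among type I targets with a core, 13 were tested, of which 6 were lower and 7 did not pass the test. For comparison, 12.7% of all genes tested were lower and 12.9% higher. Of the 3 targets without a core in the window, OAS1 was lower, TRIM25 was higher and IFI35 did not pass the test. The 6 targets with no promoter entry included 5 that were lower. The gamma-activated site, a shorter element with the letters TTCNNNGAA, matched in 9 of 27 promoters (33.3%) against 9.38% of all genes. A match describes the letters only.

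The libraries held 27813462 to 43306335 counts, and 16105 genes passed the filter on low counts. Groups were compared with the quasi-likelihood F test of edgeR, with Benjamini-Hochberg adjustment over those 16105 genes and a threshold of 0.05. A negative log2 fold change means a lower value after RSL3. A normalized count is the raw count after TMM adjustment, put on the scale of the average library. The study's methods describe samples in general as biologically independent, but nothing in the labels says that the libraries of a group came from separate cultures, and p-values then measure the spread between these libraries, which may be technical. In these bulk samples, fewer cells of a kind and less RNA per cell cannot be told apart. Of 6 glioblastoma genes checked, all were expressed, with 4 lower (VIM, CD44, FN1 and CHI3L1), TNC higher and NES not past the test. The shares over all genes tested were 12.7% lower and 12.9% higher. Of the leukocyte markers, PTPRC, CD14, CD3E and LYZ had between 0 and 10 counts over all 6 libraries, while CD74 had 40182. AIF1 was at 0, but it lies in the MHC region, where most genes had few counts, and is not read as a marker. The 3 endothelial markers summed to 66.8 to 97 normalized counts in control libraries and 29.1 to 50.9 after RSL3, with VWF lower (log2 fold change -1.33, edgeR adjusted p = 0.00111). Of the neuronal markers, SNAP25 was lower (-1.04, edgeR adjusted p = 4.84e-05) and SYT1 higher (0.24, edgeR adjusted p = 0.00214), and the 3 together summed to 1029 to 1116 in control and 1127 to 1154 after RSL3. Their part in the results was not tested. CDKN2A, which is homozygously deleted in this line, was at 0 in every library.

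Of the 34 genes, 28 passed the filter. Among these, 14 were lower after RSL3, TRIM25 was higher and 13 did not pass the test. The 14 include B2M, whose counts are not read as levels of RNA for a reason given below. Over all genes tested, 25.6% were called, 12.7% lower and 12.9% higher. The median log2 fold change was -0.22 over the 28 genes and -0.0044 over all genes tested. The type I targets gave 12 of the 14 lower genes, out of 22 tested, and their median log2 fold change was -0.26. Taking each library against the control mean, the median log2 ratio of the type I targets was -0.27, -0.24 and -0.24 in the RSL3 libraries, and 0.015, -0.091 and 0.058 in the control libraries. The count of 12 fell to 7 without control replicate 1 and to 5 without control replicate 3, while it lay between 8 and 11 without any of the other libraries. In DESeq2 it was 8 without surrogate variables, 6 with 1 and 4 with 2.

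**Figure D1:**
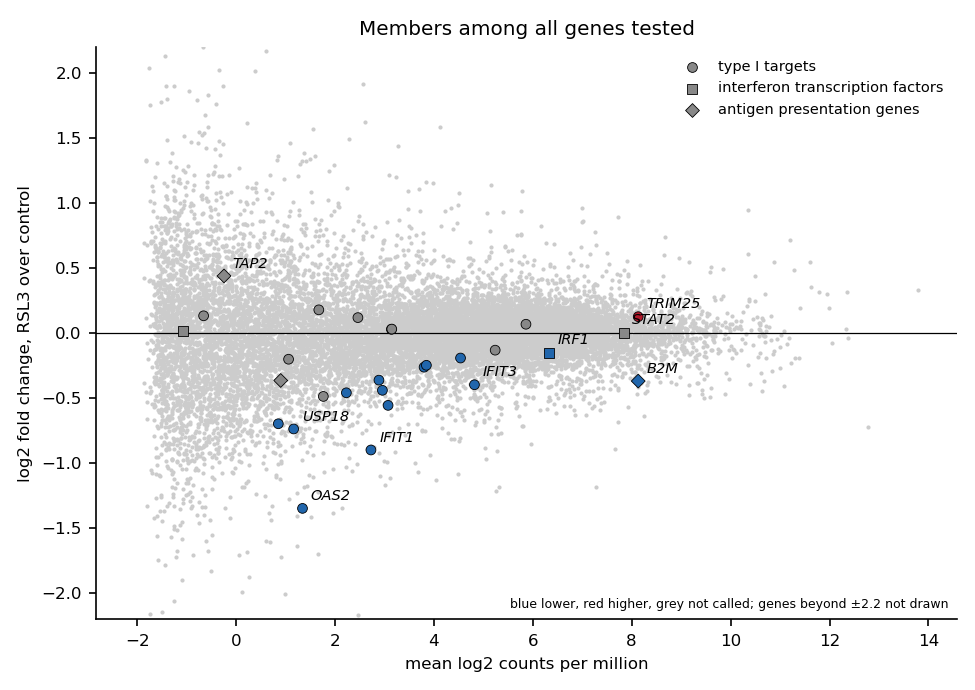
Log2 fold change (RSL3 over control) against mean log2 CPM (counts scaled to the library total), with small grey points for the genes tested and larger symbols for the 28 members, shaped by group and coloured by call (blue lower, red higher, grey not called). Of the members, OAS2 lies lowest at -1.35 and TAP2, which did not pass the test, highest at 0.44.

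The OAS genes encode enzymes that make 2′-5′ oligoadenylates, the activator of RNase L, on sensing double-stranded RNA. Of the 4 members, OAS1, OAS2 and OASL were lower. OAS2 (ENSG00000111335, chromosome 12, 112978395 to 113011723, plus strand, GENCODE v44) had the lowest log2 fold change of all 34 genes. Its normalized counts were 102, 117 and 139.5 in control replicates 1, 2 and 3 and 37.9, 48.8 and 52.9 in the RSL3 replicates. The groups did not overlap, which holds with RSL3 lower for 19.3% of all genes tested, with RSL3 higher for 19.3% and in either direction for 38.6%. The log2 fold change of OAS2 was -1.35 (SE 0.20, 95% interval -1.77 to -0.93, edgeR adjusted p = 2.9e-05), the rank 53 from the lowest of 16105. OAS1 had 73.9, 59.0 and 83.2 normalized counts in control and 39.1, 42.6 and 51.9 after RSL3, a log2 fold change of -0.70 (edgeR adjusted p = 0.0272). OASL, which lacks the synthetase activity, had a log2 fold change of -0.46 (edgeR adjusted p = 0.0407), although its groups overlapped because RSL3 replicate 1, at 169, lay within the control range of 166 to 212. OAS3 had 108, 118 and 170.0 normalized counts in control and 113, 95.5 and 75.9 after RSL3, with a log2 fold change of -0.49 that did not pass the test (edgeR adjusted p = 0.0672). Without control replicate 3 it was -0.26 (edgeR adjusted p = 0.414), while it passed the test without control replicate 1 (-0.62, edgeR adjusted p = 0.0384) and without RSL3 replicate 1 (-0.63, edgeR adjusted p = 0.0436).

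The IFIT genes, neighbours on chromosome 10, encode proteins that bind viral RNA and hinder its translation. IFIT1, IFIT2 and IFIT3 were lower, with no overlap between groups. IFIT1 (ENSG00000185745, chromosome 10, 89392546 to 89406487, plus strand) had 280.5, 290.3 and 295 normalized counts in control and 143, 142 and 178 after RSL3. This was a log2 fold change of -0.90 (SE 0.12, 95% interval -1.15 to -0.65, edgeR adjusted p = 6.86e-06). IFIT2 had 355, 295 and 354 normalized counts in control and 236, 225 and 226 after RSL3 (log2 fold change -0.56, SE 0.10, edgeR adjusted p = 0.000395). Other genes, LIPA among them, cover 13.6% of the exon bases of IFIT2. The counting ignored strand, so reads from such overlapping genes cannot be told apart. IFIT3 was the most abundant of the 3 in counts, at 1107, 1082 and 1080 in control and 778, 827 and 876 after RSL3 (log2 fold change -0.40, SE 0.06, edgeR adjusted p = 2.06e-05). IFIT5 had 1355, 1317 and 1357 normalized counts in control and 1224, 1300 and 1157 after RSL3. Its groups did not overlap, but its log2 fold change of -0.13 did not pass the test (edgeR adjusted p = 0.0648).

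**Figure D2:**
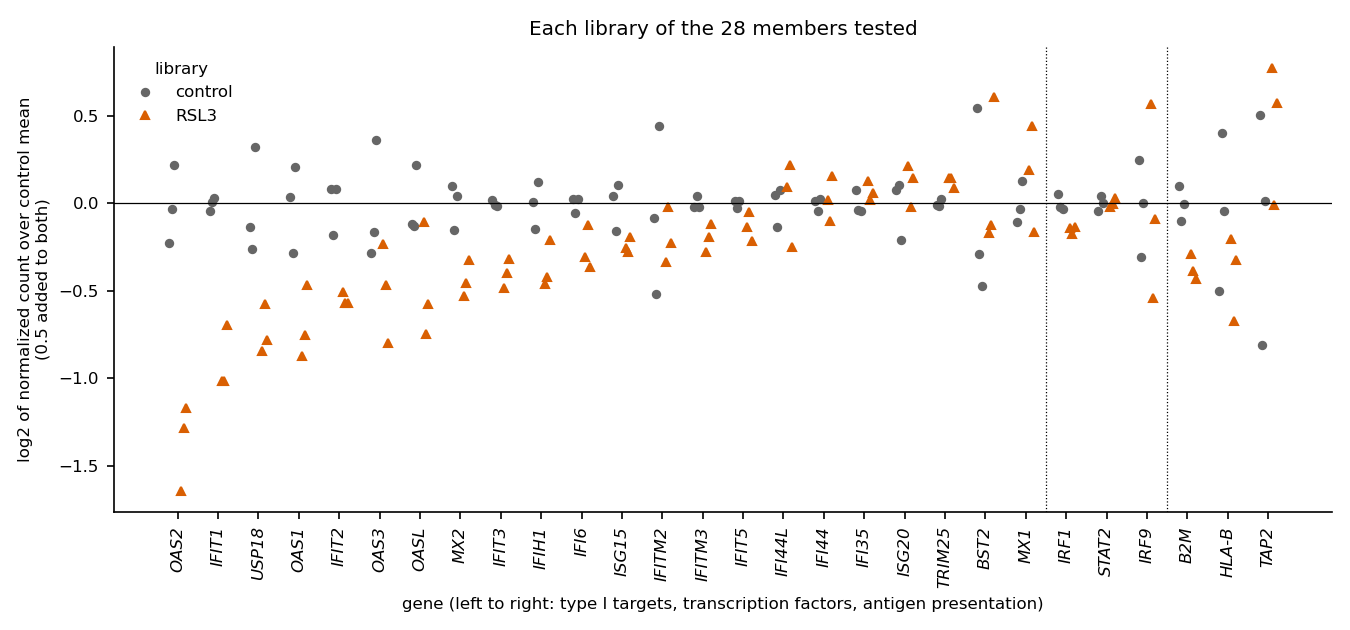
Log2 ratio of each library's normalized count to the control mean (0.5 added to both) for the 28 members tested, with grey circles for the 3 control and orange triangles for the 3 RSL3 libraries. The RSL3 points of OAS2 and IFIT1 lie well below all control points, while those of IFI44, IFI44L and STAT2 overlap the control points.

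MX1 and MX2 encode dynamin-like GTPases that block viral entry into the nucleus or assembly. MX2 had 321, 269 and 308 normalized counts in control and 207, 218 and 239 after RSL3, without overlap (log2 fold change -0.44, SE 0.11, edgeR adjusted p = 0.0044). Its neighbour MX1 had 93.5, 98.4 and 110.0 in control and 115, 137 and 89.8 after RSL3, so the groups overlapped, and its log2 fold change was 0.18 (95% interval -0.19 to 0.54, edgeR adjusted p = 0.518). The difference between the 2 genes was not tested.

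USP18 and ISG15 belong to the same protein modification system, in which ISG15 is a ubiquitin-like protein and USP18 removes it and also restrains the interferon receptor. ISG15 (chromosome 1, 1001138 to 1014540) had 543, 472 and 567 normalized counts in control and 441, 434 and 461 after RSL3 (log2 fold change -0.25, SE 0.08, edgeR adjusted p = 0.0327). USP18 had 83.3, 76.3 and 115 in control and 50.6, 61.3 and 52.9 after RSL3 (log2 fold change -0.74, SE 0.21, edgeR adjusted p = 0.0118). The groups overlapped in neither gene. Of the 75-base windows of USP18 exons, 49.4% also occur elsewhere on the primary chromosomes, so its counts are uncertain. TRIM25, a ubiquitin ligase that activates the RNA sensor RIG-I, was the only one of the 34 genes called higher. It had 9076, 9063 and 9300 normalized counts in control and 10137, 10098 and 9707 after RSL3. Its log2 fold change was 0.13 (SE 0.03, edgeR adjusted p = 0.00349). Other genes, DGKE among them, cover 6.73% of its exon bases.

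IFIH1 (MDA5), a sensor of long double-stranded RNA, had 281, 252 and 304 normalized counts in control and 202, 209 and 242 after RSL3, a log2 fold change of -0.36 (edgeR adjusted p = 0.0221). IFI6, a small membrane protein, had a log2 fold change of -0.26 (edgeR adjusted p = 0.0233), and 23.1% of its exon bases are shared with LINC02574. IFITM3, which blocks the fusion of viruses with endosomes, had 830.5, 868 and 831 normalized counts in control and 695, 737 and 777 after RSL3 (log2 fold change -0.19, edgeR adjusted p = 0.0287). For IFITM3, 17.5% of exon windows occur elsewhere on the primary chromosomes and 16.3% of exon bases are shared with other genes. These 3 genes had no overlap between groups. IFITM2 ranged from 50.4 to 98.9 in control and from 57.5 to 71.6 after RSL3 (log2 fold change -0.20, edgeR adjusted p = 0.591).

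Several further interferon targets were measured with good counts and did not pass the test. IFI44 had 300.1, 288 and 302 normalized counts in control and 301, 277 and 331 after RSL3, and its log2 fold change was 0.03 (95% interval -0.18 to 0.24). For its neighbour IFI44L the log2 fold change was 0.03 (95% interval -0.21 to 0.27). IFI35, with the highest level per kilobase of exon of the type I targets (28.9 CPM per kilobase in control), had a log2 fold change of 0.07 (95% interval -0.03 to 0.16). For the exonuclease ISG20 it was 0.12 (95% interval -0.15 to 0.39), and the 4 genes had edgeR adjusted p values of 0.867, 0.897, 0.306 and 0.562 in this order. BST2 (tetherin), which holds budding viruses at the cell surface, had 12.9 to 26.7 normalized counts in control and 16.1 to 28 after RSL3 (edgeR adjusted p = 0.853). IFI27 and IFITM1 were under the filter, with 2 counts in 1 control library for IFI27, 1 count in 1 control library for IFITM1, and 0 in all others.

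**Figure D3:**
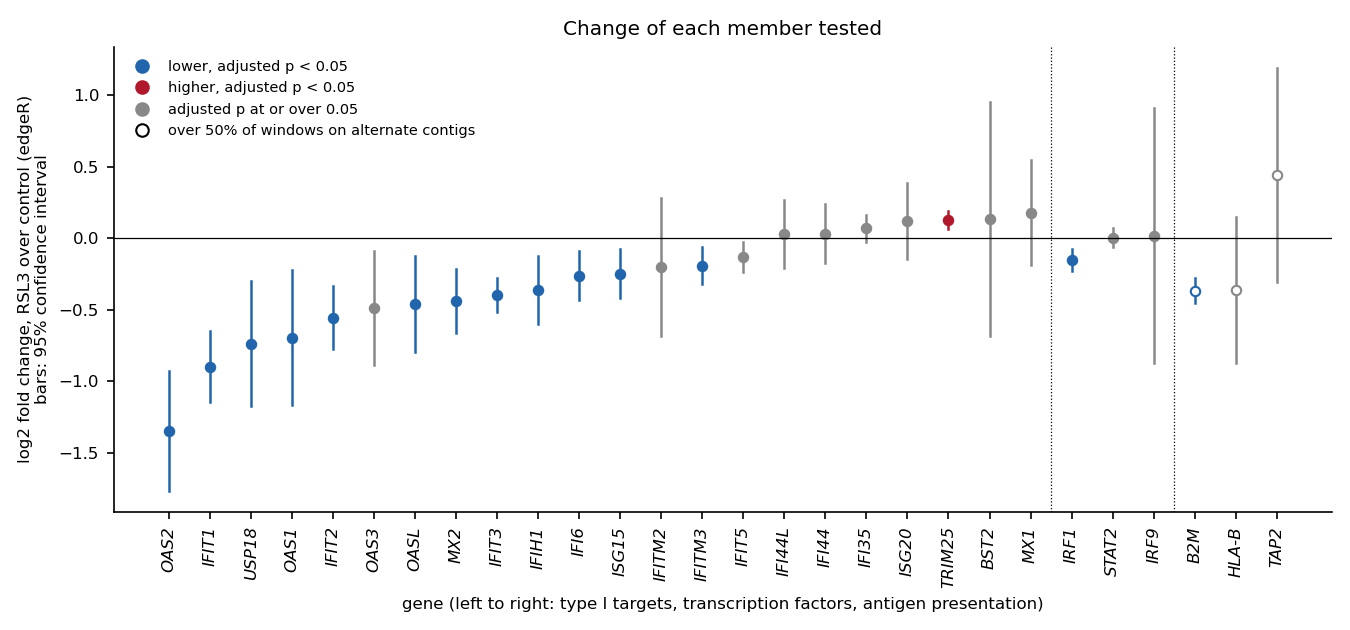
Log2 fold change (RSL3 minus control) with its unadjusted 95% interval for each member tested, by group and coloured by call (blue lower, red higher, grey not called), with open circles for genes over 50% on alternate contigs. The intervals of OAS2, IFIT1, IFIT2 and IFIT3 lie below 0 and those of IFI44, IFI44L, STAT2 and TAP2 include 0, while OAS3 and IFIT5 lie below 0 without passing the adjusted threshold.

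Of the transcription factors, IRF1, which drives both interferon targets and MHC class I genes, was lower. It had 2982, 2835 and 2812 normalized counts in control and 2605, 2552 and 2616 after RSL3, a log2 fold change of -0.15 (SE 0.04, edgeR adjusted p = 0.00417), and 22.9% of its exon bases are shared with IRF1-AS1 and another gene. STAT2 had 7556, 8024 and 7793 normalized counts in control and 7685, 7761 and 7948 after RSL3. Its log2 fold change was 0.0022 (95% interval -0.06 to 0.07, edgeR adjusted p = 0.973). IRF9, the DNA-binding partner of STAT2, had only 9 to 21 counts per library in control and 9 to 18 after RSL3 (edgeR adjusted p = 0.986, 95% interval of the log2 fold change -0.88 to 0.91). IRF7 had 0, 6 and 11 counts in control and 2, 0 and 2 after RSL3, and was not tested.

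B2M was the only antigen presentation gene with high counts, and its counts were lower after RSL3. Of its exon windows, 91.2% also occur on alternate contigs of the assembly, which are described below. The values of B2M are therefore given as counted and not read as levels of RNA. B2M (ENSG00000166710, chromosome 15, 44711358 to 44718851, plus strand) had 11518, 10041 and 10741 normalized counts in control and 8815, 8235 and 7984 after RSL3. The means were 10767 ± 739 (SD, n = 3) and 8345 ± 426 (SD, n = 3), with no overlap. Its log2 fold change was -0.37 (SE 0.04, 95% interval -0.46 to -0.28, edgeR adjusted p = 1.09e-06).

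The other 5 antigen presentation genes lie in the MHC region of chromosome 6 and had few counts. HLA-B had 64, 77 and 75 counts in control and 54, 43 and 57 after RSL3 (log2 fold change -0.36, 95% interval -0.88 to 0.15, edgeR adjusted p = 0.314), and 47.3% of its exon bases are shared with other genes. TAP2 had 40, 10 and 24 counts in control and 33, 21 and 33 after RSL3 (log2 fold change 0.44, 95% interval -0.31 to 1.19, edgeR adjusted p = 0.424). The groups overlapped for TAP2 and for the normalized counts of HLA-B. HLA-C had 8, 13 and 4 counts in control and 3, 4 and 4 after RSL3, TAPBP had 13, 3 and 6 in control and 4, 0 and 5 after RSL3, and TAP1 had 1 count in 1 RSL3 library.

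These low counts coincided with sequence that the hg38 assembly holds more than once. Every 75-base window of the exons was searched on the 261 alternate contigs of hg38, which carry other versions of some regions. All windows of TAP1, TAPBP and IFI27 had an exact copy there, as had 99.2% for TAP2, 96.7% for IRF7, 91.2% for B2M, 84.5% for HLA-C and 60.7% for HLA-B. In the other 26 genes the share was at most 0.197%. Of 178 protein-coding genes in the MHC region (chromosome 6, genes from 28503296 to 33457544), 157 (88.2%) had under 60 counts over the 6 libraries, against 300 of 848 (35.4%) on the rest of the chromosome. Of the 178, 173 had copies of more than 50% of their windows, and 156 of these were under 60 counts. The remaining 5 included 4 with at least 60 counts. Of 6 MHC region genes that nearly all cells use, picked after their values were seen, LSM2 had 0 counts in total, CLIC1 4, TUBB 5, CSNK2B 14, BAG6 43 and RPS18 223. Whether the authors aligned to the alternate contigs is not given in the sources used here, and the part of these copies in the counts was not tested. The counts of these 8 genes are therefore given as counted and not read as levels of RNA. Of the 26 other genes, 25 were tested and 13 were lower, against 12.7% of all genes tested.

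**Figure D4:**
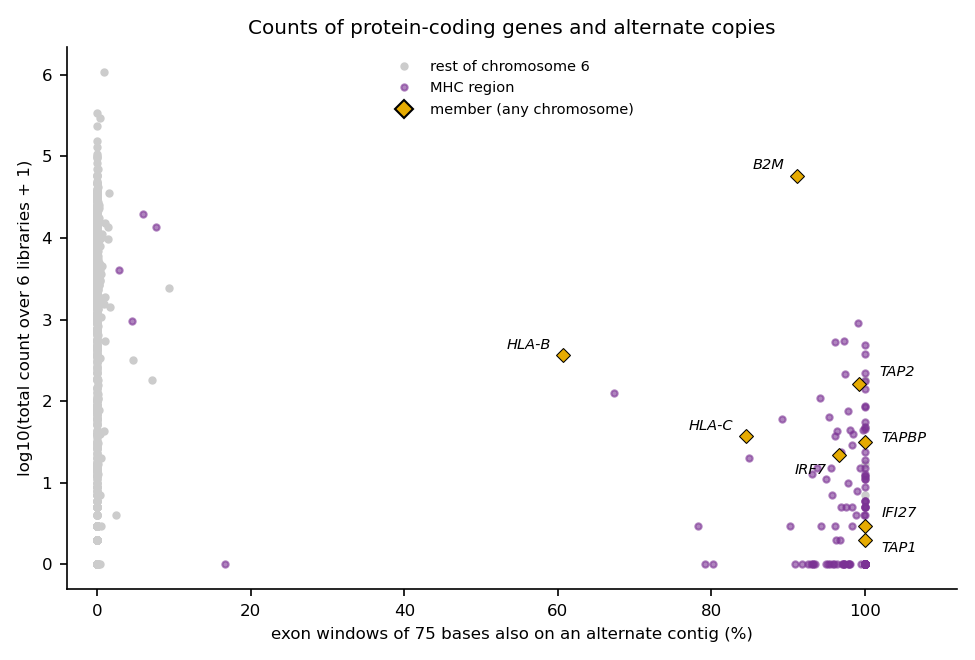
Total count over the 6 libraries (log10 scale, 1 added) against the share of 75-base exon windows that also occur on an alternate contig, for protein-coding genes of chromosome 6 and the 8 members over 50%. Purple points of the MHC region crowd at the lower right, while B2M keeps a high count at 91.2%.

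The contrast of type I targets with antigen presentation genes thus rests on few genes. The antigen presentation genes gave 1 lower gene, B2M, out of 3 tested, against 12.7% of all genes tested. Their median log2 fold change was -0.36. All 3 are among the 8 genes with most windows on alternate contigs, and the median is the value of HLA-B, which did not pass the test. The type I median minus the antigen presentation median was 0.11, which reversed to -0.22 without control replicate 2 and to -0.07 without RSL3 replicate 2. No difference between the groups of genes was tested. B2M as counted, at -0.37, lay inside the range of the type I targets, from -1.35 to 0.18. Its counts are not read as levels of RNA.

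Other genes of the interferon and MHC pathways, both signalling steps and further targets, were described from 8 further lists. These held 114 genes, of which 79 were tested. There were 40 lower, 9 higher and 30 that did not pass the test, with a median log2 fold change of -0.14. Over all genes tested, 12.7% were lower and 12.9% higher, so the share of higher genes among the 79 was near the background. Transcripts of the interferons themselves were not detected, and whether the genome of this line holds these genes was not tested. IFNB1 and the other 14 ligand genes listed had 0 counts in every library, which allows up to 3 counts, or 0.108 CPM in the smallest library and 0.0693 CPM in the largest, covering counting error only.

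Of 11 receptor and kinase genes tested, 5 were lower, against 12.7% of all genes. The only log2 fold change above 0, 0.20 for IFNGR2, did not pass the test (edgeR adjusted p = 0.596). IFNGR2 had 92.5% of its exon windows on alternate contigs, so its counts are not read as levels of RNA. The receptor chain IFNAR1 went from 3408 ± 52.5 to 2884 ± 51.1 (SD, n = 3; log2 fold change -0.24, edgeR adjusted p = 2.18e-05). JAK1 had a log2 fold change of -0.17 (edgeR adjusted p = 0.000158). For IFNAR2 it was -0.14 (edgeR adjusted p = 0.48), and for TYK2 it was -0.01 (edgeR adjusted p = 0.881).

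Of 13 nucleic acid sensors and adaptors tested, 4 were lower and 2 higher, against 12.7% and 12.9% of all genes. TLR3, the endosomal receptor for double-stranded RNA, had 307, 329.6 and 334 normalized counts in control and 161, 152 and 198 after RSL3 (log2 fold change -0.92, edgeR adjusted p = 4.03e-06). Its adaptor TICAM1 went the other way, with a log2 fold change of 0.29 (edgeR adjusted p = 7.16e-05), as did MAVS, the adaptor of RIG-I and MDA5, with 0.18 (edgeR adjusted p = 0.000752). Of 7 inhibitors tested, SOCS3 (log2 fold change -0.55, edgeR adjusted p = 3.81e-05) and NLRX1 (-0.64, adjusted p = 0.0175) were lower and SOCS1 was higher (0.63, adjusted p = 0.0415). SOCS1 had only 43.0 to 48.7 normalized counts in control and 57.9 to 82.8 after RSL3. In the ISG15 conjugation list, UBA7, the activating enzyme (log2 fold change -0.44, edgeR adjusted p = 6.37e-06), and UBE2L6, the conjugating enzyme (-0.17, adjusted p = 0.000887), were lower among 4 tested.

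Among 26 further interferon-stimulated genes tested, 18 were lower and 1 was higher, against 12.7% and 12.9% of all genes. Their median log2 fold change was -0.20. TRIM22, an antiviral ubiquitin ligase, had 4042, 4169 and 4210 normalized counts in control and 2939, 3152 and 3096 after RSL3 (log2 fold change -0.43, edgeR adjusted p = 1.25e-08). APOL6 (-0.41, edgeR adjusted p = 1.79e-07) and SAMD9L (-0.55, edgeR adjusted p = 3.46e-07), a restriction factor, were also lower. The higher gene was TRIM5, a factor that recognises retroviral capsids, with 1736, 1708 and 1732 normalized counts in control and 2146, 2168 and 2131 after RSL3 (log2 fold change 0.32, edgeR adjusted p = 3.29e-06).

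Of 11 further MHC class I pathway genes tested, 5 were lower and 3 higher, against 12.7% and 12.9% of all genes. ERAP2, which trims peptides in the endoplasmic reticulum, had 2312, 2307 and 2494 normalized counts in control and 1560, 1740 and 1747 after RSL3 (log2 fold change -0.49, edgeR adjusted p = 1.05e-07). The higher genes included CALR (0.20, edgeR adjusted p = 2.84e-06) and CANX (0.19, edgeR adjusted p = 4.24e-05), chaperones that also fold many other glycoproteins. NLRC5, the activator of MHC class I genes, had a log2 fold change of -0.10 (edgeR adjusted p = 0.279). The immunoproteasome subunits PSMB8 and PSMB9 had 4 and 2 counts in total, with all exon windows copied on alternate contigs.

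**Figure D5:**
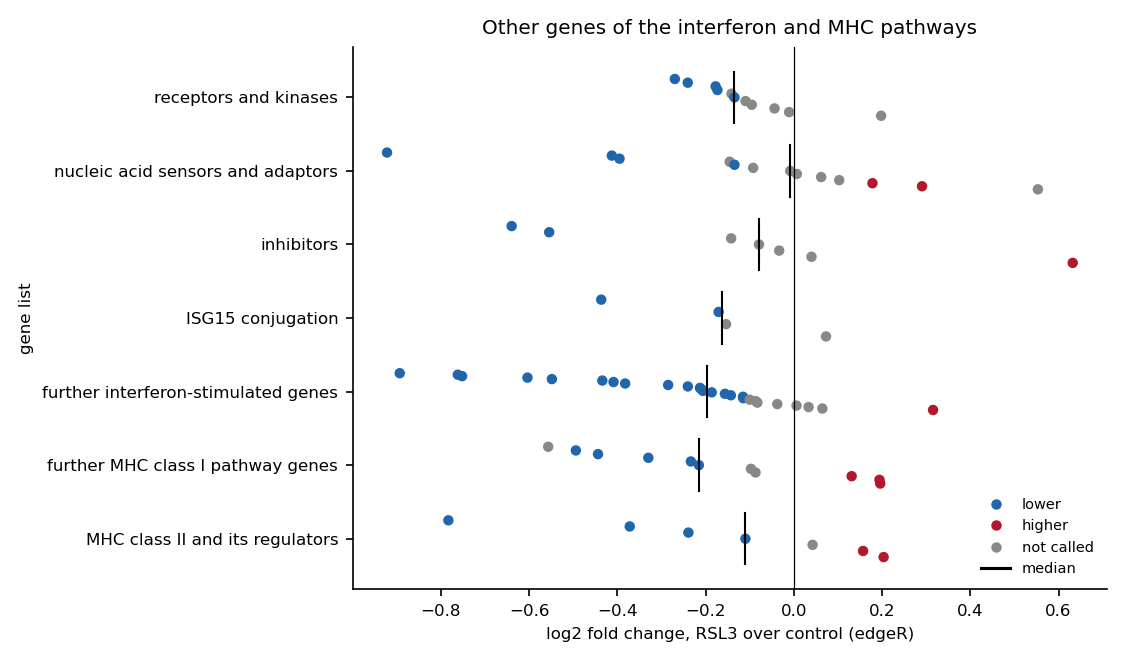
Log2 fold change (RSL3 minus control) of the tested genes of 7 further lists, one point per gene coloured by call, with a vertical line at the median of each list. Most points of the further interferon-stimulated genes lie below 0, while the sensors lie on both sides.

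Several of the single calls depended on the settings of the analysis. Of the 14 lower genes, OAS2, IFIT1, IFIT2, IFIT3 and B2M were lower in all 16 alternatives, and TRIM25 was higher in all of them. For B2M this describes its counts only, which are not read as levels of RNA. IFITM3 lost its call in 9 of the 16, ISG15, OAS1 and OASL in 8 each, IFI6 and IFIH1 in 7 each, USP18 in 3, and MX2 and IRF1 in 1 each. DESeq2 without surrogate variables did not call ISG15, OAS1, OASL or IFITM3, with adjusted p of 0.0627, 0.0563, 0.0709 and 0.0599. The largest adjusted p of any of these genes was 0.231, for ISG15. None of the 15 called genes changed direction.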

How the data were processed

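RNA of U87MG cells was sequenced in read pairs. Per the submitters' processing notes and the study's methods, the authors trimmed reads with Trimmomatic 0.36, used HISAT2 for alignment against GRCh38.p4, and counted exon reads without strand in HTSeq 0.6.1p1. The deposited values are raw counts per Ensembl gene identifier, without normalization, in 6 libraries. The annotation release is not given in the sources used here. A table of names gave a symbol for 56434 of 65988 identifiers, and the other 9554 held 0.318% of counts.

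The test was run on the counts in edgeR 4.0.16 (R 4.3.3), with filterByExpr at a minimum count of 10, TMM, quasi-likelihood F tests without covariates, and p adjusted by Benjamini-Hochberg (threshold 0.05). Group means are of normalized counts. Exon lengths, overlaps and windows used GENCODE v44 and hg38, and promoters RefSeq, which may differ from the annotation behind the counts. Members and lists were chosen with earlier results of these data known. All members are named, and of each further list the 3 called genes with the smallest p, plus fixed pathway genes, of which 1 is not reported here. Alternatives were DESeq2 1.42.0 without or with 1 or 2 surrogate variables from sva 3.50.0, edgeR with 1, other scaling, other filters, a threshold of 0.01, a replicate block, and each library left out. The scripts were tested on simulated data. Depth was 27813462 to 43306335 counts per library.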

Additional observations from a re-analysis of the deposited data

How the results depend on the processing

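Of 444 values of single members under the alternatives, 375 kept direction and side of the threshold, 52 lost a call, 5 gained one and 12 reversed. The 12 lower type I targets became 8 in DESeq2, 6 with 1 surrogate variable, 4 with 2, and 5 at a threshold of 0.01, and the lower transcription factor became 0 in DESeq2 with 2 surrogate variables. Over all genes, the 4123 called became 2268 in DESeq2 with 2 surrogate variables and 2691 at 0.01. Without a filter the type I median was -0.31 and the difference of medians 0.054, against 0.11. Keeping only type I targets that share no exon base and have under 5% of windows elsewhere, chosen after seeing the data, left 12 tested with 5 lower, 0 higher and a median of -0.25, where the background of lower genes is 12.7%. Leaving out 1 library gave 5 to 11 lower type I targets, a type I median of -0.35 to -0.22, an antigen presentation median of -0.41 to -0.13, a difference of medians of -0.22 to 0.17, and 34 to 37 lower and 7 to 9 higher among the further pathway genes.

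The reversed values were all of genes not called. Leaving out 1 library in turn, log2 fold changes ranged from -0.036 to 0.093 for IFI44, from -0.076 to 0.16 for IFI44L, from -0.38 to 0.084 for IFITM2, from -0.17 to 0.56 for BST2, from -0.020 to 0.026 for STAT2 and from -0.32 to 0.25 for IRF9, and with total counts STAT2 was at -0.0060. The cause was not tested for any of these changes.

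Deviations of same-numbered libraries correlated little, at 0.0222, 0.0273 and 0.0745, against -0.0514 to 0.0242 between differently numbered libraries. The numbers were not taken as pairs. With the replicate block, 13 type I targets were lower, 1 was higher, and 4633 genes were called in all. Summing identifiers of the same symbol was not run because each member had 1 identifier. Low counts limit BST2, IRF9, HLA-B and TAP2, whose intervals span changes in both directions.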

Other observations

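Genes of the MHC class II pathway, usually active in antigen-presenting cells, were listed as well. Of 12 genes, 7 were tested, of which 4 were lower after RSL3 and 2 higher, against 12.7% and 12.9% of all genes. HLA-DRB1 was the only chain gene tested, while HLA-DRA, HLA-DPA1, HLA-DPB1, HLA-DMA and HLA-DMB had 23, 3, 2, 12 and 4 counts in total. The share of exon windows on alternate contigs was 93.1% for HLA-DMA, 98.3% for HLA-DMB and 100% for HLA-DRA, HLA-DPA1 and HLA-DPB1. The low counts of these chain genes are therefore not read as levels of RNA. CIITA, the activator of MHC class II genes, had 434, 481 and 454 normalized counts in control and 234, 255 and 301 after RSL3 (log2 fold change -0.78, edgeR adjusted p = 4.28e-06). HLA-DRB1 had 2681, 2424 and 2577 in control and 2022, 1864 and 2062 after RSL3 (log2 fold change -0.37, edgeR adjusted p = 2.86e-06). CD74, the invariant chain, had a log2 fold change of -0.24 (edgeR adjusted p = 7.12e-06). HLA-DRB1 lies in the MHC region, has 7.67% of its exon windows on alternate contigs and had 13790 counts in total. Of the 114 further pathway genes, 13 had more than 50% of windows on alternate contigs, and 2 of these 13 passed the filter.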
